A study of Mus musculus with 278 samples.

Results

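Beta-catenin, the protein made from Ctnnb1, and the genes whose products degrade it or carry its signal in the nucleus are described here in single cells from cultures of mouse keratinocytes, the cell type that builds the epidermis. The genes were chosen by name: Ctnnb1, Apc, Axin1, Gsk3a, Gsk3b, Csnk1a1, Btrc, Tcf7l1, Tcf7l2 and Bcl9. Of these 10 genes, 9 have a row among the 14145 genes of the table, and Tcf7l1 is not analysed here. Cells were taken from adult dorsal skin cultures in which 9 parts of wild-type keratinocytes were grown with 1 part of K14ΔNβ-cateninER keratinocytes. In the latter the K14 promoter, active in basal keratinocytes, drives a stabilised beta-catenin that lacks its N terminus and is joined to an oestrogen receptor domain, so that 4-hydroxytamoxifen (4-OHT) switches it on. Untreated cultures received DMSO and 4-OHT cultures received 200 nM 4-OHT for 24 h, and every group contains both kinds of keratinocyte. The study, by its methods, recognised the K14ΔNβ-cateninER cells from reads that matched their transgene and left them out. The labels and values used here do not mark those cells, so they were not told apart in the present analysis and may be among the cells behind each level below. Libraries came in 2 series, AG and GHA501A, each with 1 set of cells per treatment: 66 cells in AG untreated, 64 in AG 4-OHT, 71 in GHA501A untreated and 69 in GHA501A 4-OHT. Values are TPM, a level per transcript length scaled to a total of 1000000 in every cell, so neither the number of reads in a cell nor the counting error of a low value can be given.

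In the absence of a Wnt ligand, beta-catenin that is not held at cell junctions is caught by a complex built on the scaffolds Apc and Axin1. Casein kinase 1 alpha (Csnk1a1) phosphorylates it first and glycogen synthase kinase 3 (Gsk3a and Gsk3b) continues, after which the ubiquitin ligase subunit Btrc recognises the marked protein for degradation by the proteasome. Wnt signalling stops this, and beta-catenin then enters the nucleus, where it binds Tcf/Lef factors such as Tcf7l2 and recruits Bcl9. In the epidermis this pathway is known for its part in hair follicle formation and stem cell renewal, while at the membrane beta-catenin links cadherins to the actin cytoskeleton. All of these steps act on protein, and only transcript levels were measured.

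The residues on which the complex acts lie in the N terminus of beta-catenin, and they are shown because this is the kind of stretch that a truncated, stabilised form lacks. Codons 32 to 45 of the mouse Ctnnb1 coding sequence (781 codons, GENCODE transcript ENSMUST00000007130.14) lie in coding exon sequence, in exon 3, at chr9:120950602-120950643 on the plus strand of GRCm38. Capitals mark the serine and threonine codons 33, 37, 41 and 45, of which the last is the casein kinase 1 site and the others are glycogen synthase kinase 3 sites.
Ctnnb1 codons 32 to 45: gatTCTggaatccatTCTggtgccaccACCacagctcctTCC

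The labels call all cells keratinocytes, and marker genes did not bear this out for most GHA501A cells. Clustering without the genes described here placed 20 GHA501A cells in a keratinocyte-like cluster (9 untreated, 11 4-OHT), with a median of 2028 TPM of the basal keratin Krt14, and 120 cells in fibroblast-like clusters, with 3.80 TPM of Krt14 and 1128 TPM of the collagen gene Col1a1. All 130 AG cells fell in keratinocyte-like clusters, with a median Krt14 of 4908 TPM and a median Col1a1 of 0 TPM. The series also differed in which genes were counted. Of 1744 genes with TPM over 1 in more than 95% of GHA501A cells, 94 (5.39%) passed that level in fewer than 5% of AG cells, among them Rps24, a ribosomal protein gene that every cell uses, with a median of 738 TPM in GHA501A and 0 TPM in AG. A series difference in a gene listed near 0 in AG therefore cannot be told apart from cell makeup or from the counting of that gene.

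**Figure D1:**
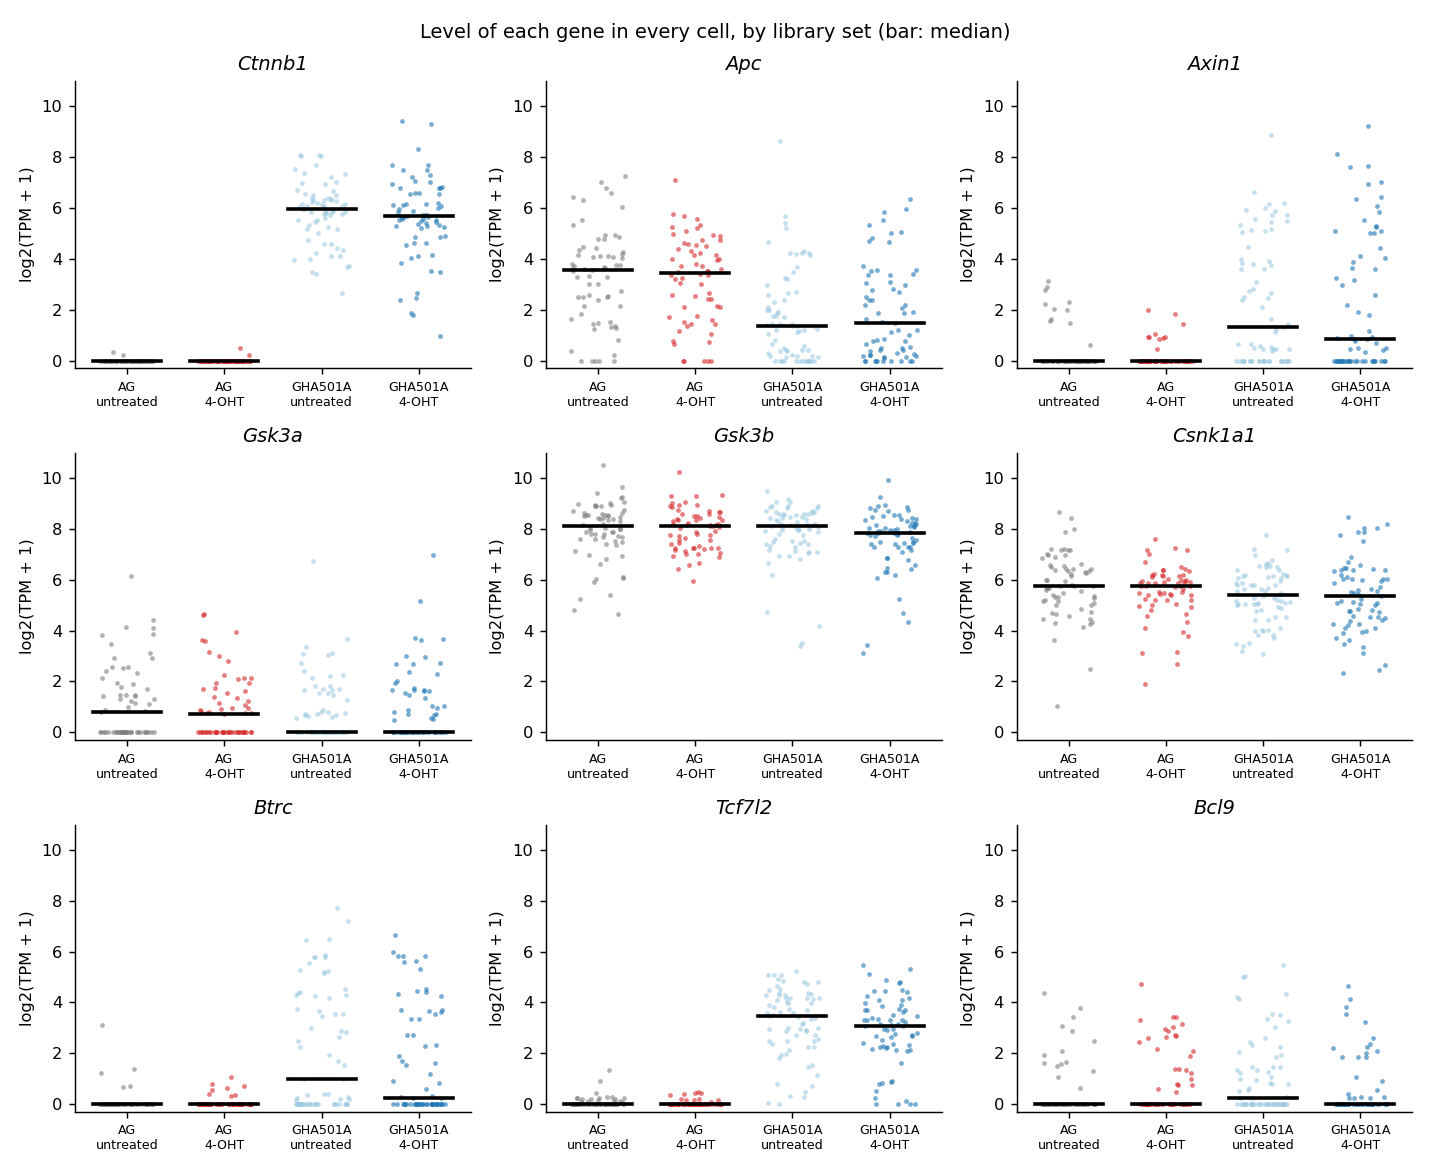
Each point is 1 cell, the y axis is log2(TPM + 1), the 4 columns of a panel are the library sets and the black bar is the median. Gsk3b and Csnk1a1 were detected in every cell of every set, whereas Ctnnb1 lay at or near 0 in all AG cells and at a median of 61.4 TPM (untreated) and 50.1 TPM (4-OHT) in GHA501A.

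Ctnnb1 was counted in one series only. In GHA501A untreated cells the lowest, median and highest levels were 5.38, 61.4 and 272 TPM. In GHA501A 4-OHT cells they were 0.957, 50.1 and 695 TPM. The sets overlapped over nearly their whole range, with a lower median and a higher maximum after 4-OHT. TPM exceeded 1 in 71 of 71 untreated and 68 of 69 4-OHT cells. In AG, Ctnnb1 was listed at 0 except in 2 cells of each set, with a highest value of 0.254 TPM in untreated and 0.419 TPM in 4-OHT cells, so that 0 of 130 AG cells passed TPM 1. The 8 further AG cells whose labels conflict, which entered no set, all had Ctnnb1 at 0. Keratinocytes hold beta-catenin at their junctions, and Cdh1, the E-cadherin gene, was detected in 95.5% of AG untreated and 95.3% of AG 4-OHT cells. Ctnnd1, another junction gene, passed TPM 1 in 0 of 130 AG cells. The GHA501A keratinocyte-like cells, by contrast with AG cells of the same class, had Ctnnb1 medians of 67.2 TPM (untreated, 9 cells) and 45.5 TPM (4-OHT, 11 cells).

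The Ctnnb1 gene, at chr9:120929216-120960507 on the plus strand, shares exon sequence with Ulk4, a kinase-like gene on the opposite strand. Ulk4 had the pattern most like that of Ctnnb1 across cells, with a mean Pearson correlation of log2(TPM + 1) of 0.864 over the 2 GHA501A sets among 5735 genes compared. The next genes, Sik1 and Prrc2c, reached 0.382 and 0.369. Cells of a set share their library preparation, and these correlations are descriptions over 71 and 69 cells. Ulk4 was at a median ratio of 0.343 to Ctnnb1 in a cell, with quartiles of 0.247 and 0.463. In AG it was as near to 0 as Ctnnb1 in its median, and it exceeded TPM 1 in 1 untreated and 7 4-OHT cells. No strand setting of the counting is given in the sources used here, so reads of these overlapping exons cannot be assigned to one gene with certainty, and the Ctnnb1 level carries that uncertainty.

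**Figure D2:**
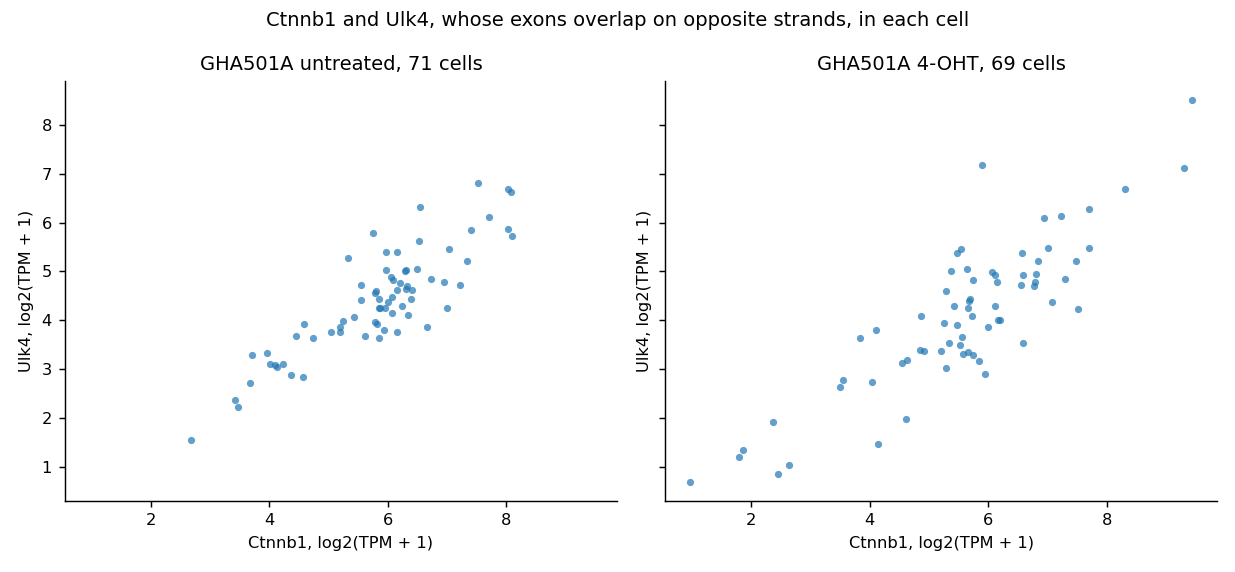
Ulk4 against Ctnnb1, both as log2(TPM + 1), in each cell of the 2 GHA501A sets (71 untreated and 69 4-OHT cells). The points follow a rising band in both sets, with correlations between 0.861 and 0.867.

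Of the scaffolds, Apc, which holds beta-catenin in the complex, was found in most AG cells and in fewer GHA501A cells. In AG untreated cells the lowest, median and highest Apc levels were 0, 10.9 and 151 TPM. In AG 4-OHT cells they were 0, 9.94 and 136.8 TPM. The GHA501A medians were 1.55 TPM (untreated, highest 395) and 1.81 TPM (4-OHT, highest 80.7). The range of every set starts at 0 and all sets overlap, but both AG medians exceed both GHA501A medians. Detection was 87.9% and 87.5% of AG untreated and 4-OHT cells (95% Wilson intervals 77.9 to 93.7% and 77.2 to 93.5%, which cover counting of cells only), and 59.2% and 56.5% of GHA501A cells (47.5 to 69.8% and 44.8 to 67.6%). A single GHA501A untreated cell at 395 TPM gave Apc a coefficient of variation of 436% there, above 92.3% of the 2035 genes with a mean within 1.5-fold of its own. In the other sets the coefficient lay between 131.96 and 188.2%, below the median of genes of like mean.

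Axin1, the scaffold that is limiting in most accounts of the complex, was sparse. The AG medians were 0 TPM in both sets, with highest values of 7.81 TPM (untreated) and 2.95 TPM (4-OHT). In GHA501A the medians were 1.53 TPM (untreated) and 0.806 TPM (4-OHT), while single cells reached 463 and 597 TPM. Axin1 passed TPM 1 in 14 of 130 AG cells and 69 of 140 GHA501A cells. In GHA501A the mean of 20.5 TPM in untreated and 31.8 TPM in 4-OHT cells was thus set by a minority of cells with high values.

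The kinases divided sharply by level. Gsk3b was the most abundant of the 9 genes in every set, with medians of 277 TPM in AG untreated, 278 TPM in AG 4-OHT, 276 TPM in GHA501A untreated and 230 TPM in GHA501A 4-OHT cells. Its lowest and highest values were 24.5 and 1457 TPM in AG untreated, 61.8 and 1212 TPM in AG 4-OHT, 9.61 and 723 TPM in GHA501A untreated, and 7.73 and 966 TPM in GHA501A 4-OHT cells. The sets overlapped almost completely and only the GHA501A 4-OHT median stood lower. Its paralogue Gsk3a, which phosphorylates the same sites, was at medians of 0.763 and 0.659 TPM in AG untreated and 4-OHT cells and at 0 TPM in both GHA501A sets. Gsk3a was detected in 47% and 35.9% of AG cells and in 29.6% and 36.2% of GHA501A cells, in the same order of treatment. The genes most like Gsk3b over all 4 sets, among 4317 compared, were Twf1, Pcnp and Fubp3, with mean correlations of 0.546, 0.536 and 0.503. These correlations are between cells of a set, which share their preparation, over 64 to 71 cells in each set.

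Csnk1a1, the priming kinase, was detected in all 270 cells. The lowest, median and highest values were 1.06, 53.5 and 410 TPM in AG untreated and 2.74, 52.7 and 194 TPM in AG 4-OHT cells. In GHA501A they were 7.55, 41.9 and 217 TPM in untreated and 4.10, 40.6 and 353 TPM in 4-OHT cells. Medians within a series differed by little between treatments, and the ranges overlapped throughout. The AG medians were higher than those of GHA501A, and within GHA501A the keratinocyte-like cells, at 57.9 and 60.5 TPM (untreated and 4-OHT), were near the AG medians.

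Btrc, the substrate receptor of the ubiquitin ligase, resembled Axin1 in its pattern. It passed TPM 1 in 4 of 130 AG cells, with a highest value of 7.67 TPM. In GHA501A it passed in 47.9% of untreated and 42% of 4-OHT cells, with medians of 0.968 and 0.189 TPM and highest values of 207 and 98.8 TPM. Its paralogue Fbxw11, which recognises the same phosphorylated stretch, was detected in 90.9% and 93.8% of AG untreated and 4-OHT cells and in 73.2% and 55.1% of GHA501A cells. Fbxw11 medians were 28 and 25.2 TPM in AG and 7.74 and 2.11 TPM in GHA501A. Among AG cells, receptor transcript was therefore listed for Fbxw11 and nearly not for Btrc.

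**Figure D3:**
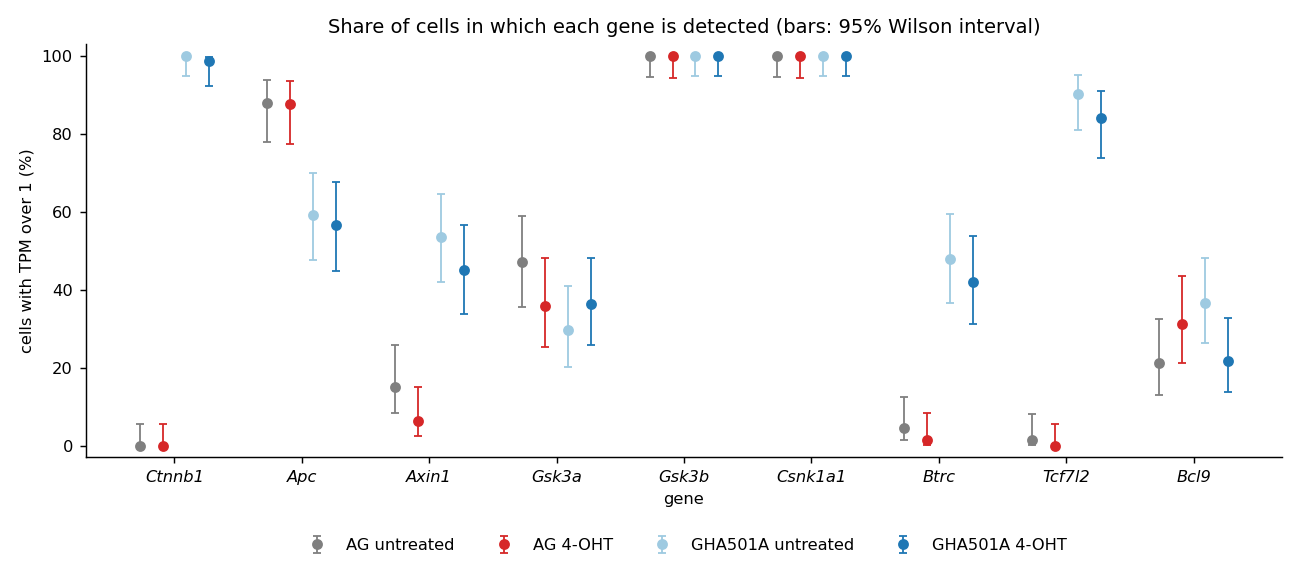
Percentage of cells with TPM over 1 for each gene (x axis), by library set, with 95% Wilson intervals as bars. Ctnnb1, Axin1, Btrc and Tcf7l2 lie at or below 15.2% in both AG sets and at 42% or more in both GHA501A sets, while Apc is higher in AG.

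Of the nuclear partners, Tcf7l2, a DNA-binding factor to which beta-catenin binds, was counted in GHA501A. Its lowest, median and highest values were 0, 10.2 and 36.8 TPM in untreated and 0, 7.38 and 43.2 TPM in 4-OHT cells. It was detected in 90.1% and 84.1% of these cells, and in 1 of 130 AG cells, where no value exceeded 1.51 TPM. For its level, Tcf7l2 was the most even of the members with a mean over 1 TPM: its coefficient of variation of 78.5% (untreated) and 94.6% (4-OHT) lay above that of only 0.146% of 2057 and 0.283% of 2120 genes with a like mean, whose medians were 223% and 270%. Since Tcf7l1 has no row, the genes most like Tcf7l2 were taken in its place, a choice made after the values were seen. They were Fstl1, Il1r1 and Akap13, with mean correlations of 0.446, 0.426 and 0.410 over the 2 GHA501A sets.

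Bcl9, the co-activator that bridges beta-catenin to Pygo proteins, was low everywhere. Its medians were 0 TPM in both AG sets, 0.185 TPM in GHA501A untreated and 0 TPM in GHA501A 4-OHT cells, and no cell exceeded 42.9 TPM. It was detected in 21.2% and 31.3% of AG untreated and 4-OHT cells, and in 36.6% and 21.7% of GHA501A cells. The shares thus moved in opposite directions with treatment in the series. The Wilson intervals overlapped (13.1 to 32.5% and 21.2 to 43.4% in AG, 26.4 to 48.2% and 13.6 to 32.8% in GHA501A). They cover counting of cells only, so their overlap is no test of treatment. The Bcl9 paralogue Bcl9l was detected in more cells in every set, 71.2% and 84.4% in AG and 45.1% and 60.9% in GHA501A.

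In a single cell, a median of 4 of the 9 genes passed TPM 1 in both AG sets and a median of 6 in both GHA501A sets. By median level the order in GHA501A was Gsk3b, Ctnnb1, Csnk1a1 and Tcf7l2, with the remaining genes at 1.81 TPM or less in either set. In AG it was Gsk3b, Csnk1a1 and Apc, with the remaining genes at 0.763 TPM or less. In both GHA501A sets the ranges of Ctnnb1 and Csnk1a1, which are neighbours in that order, overlapped almost throughout. Members were weakly related to each other across cells. The pair Gsk3b and Tcf7l2 had a Pearson r of 0.484 in GHA501A untreated but 0.0657 in GHA501A 4-OHT cells. Apc and Csnk1a1 had r of 0.440 and 0.323 in the AG sets but -0.277 and 0.0761 in the GHA501A sets.

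The comparison the study was designed for is 4-OHT against untreated, that is, co-cultures in which the beta-catenin of the K14ΔNβ-cateninER cells was switched on against those in which it was not. None of the 9 genes passed the test. Each set was reduced to log2(mean TPM + 1), and the 4 sets were compared with limma, with the series as a block, over the 12355 genes that passed TPM 1 in more than 5 cells. A call needed a Benjamini-Hochberg adjusted p under 0.05 and a change over 0.5 on the log2 scale. The background was 0% of genes called (0 of 12355, with 459 at an unadjusted p under 0.05), so the count of 0 members says nothing particular about them. The estimates ranged from -0.43 (Btrc) to 0.09 (Axin1), all with adjusted p = 0.998, and the 95% intervals were wide. For Gsk3b, the best measured, the estimate was -0.14 with an interval from -1.01 to 0.73. With 2 sets per condition the values are compatible with any difference in that interval, which is no limit of detection. Nothing in the labels says that the 2 series came from separate cultures or animals, so p-values measure the spread between these sets, which may be technical.

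Within the series the direction differed from gene to gene. For Gsk3b the differences, on the log2(mean TPM + 1) scale, were -0.08 in AG and -0.21 in GHA501A. For Apc the differences were -0.37 in AG and -0.32 in GHA501A. The GHA501A value rests on a mean that holds a single untreated cell at 395 TPM, and the median rose from 1.55 to 1.81 TPM. In the AG cluster with fewer genes detected, described below, the Apc means were 35.5 and 23.4 TPM (untreated and 4-OHT). In the other AG cells they were 14.7 and 14.5 TPM. Ctnnb1, which only GHA501A can inform, differed by 0.15 there, and its median went the other way. For Tcf7l2, which likewise only GHA501A can inform, the difference was -0.27. In all, 5 genes had the same sign in both series and 4 (Axin1, Gsk3a, Csnk1a1 and Bcl9) had opposite signs. Of the 5, Ctnnb1, Tcf7l2 and Btrc passed TPM 1 in 0, 1 and 4 of 130 AG cells. Their AG sign is that of values near 0, so for them the shared sign is no agreement between the series. For Csnk1a1 the differences were -0.44 in AG and 0.36 in GHA501A. When only keratinocyte-like cells were averaged, again 0 of 9 members were called, against a background of 0% (0 of 11824 genes, with 245 at an unadjusted p under 0.05), with 9 and 11 cells behind the GHA501A values.

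**Figure D4:**
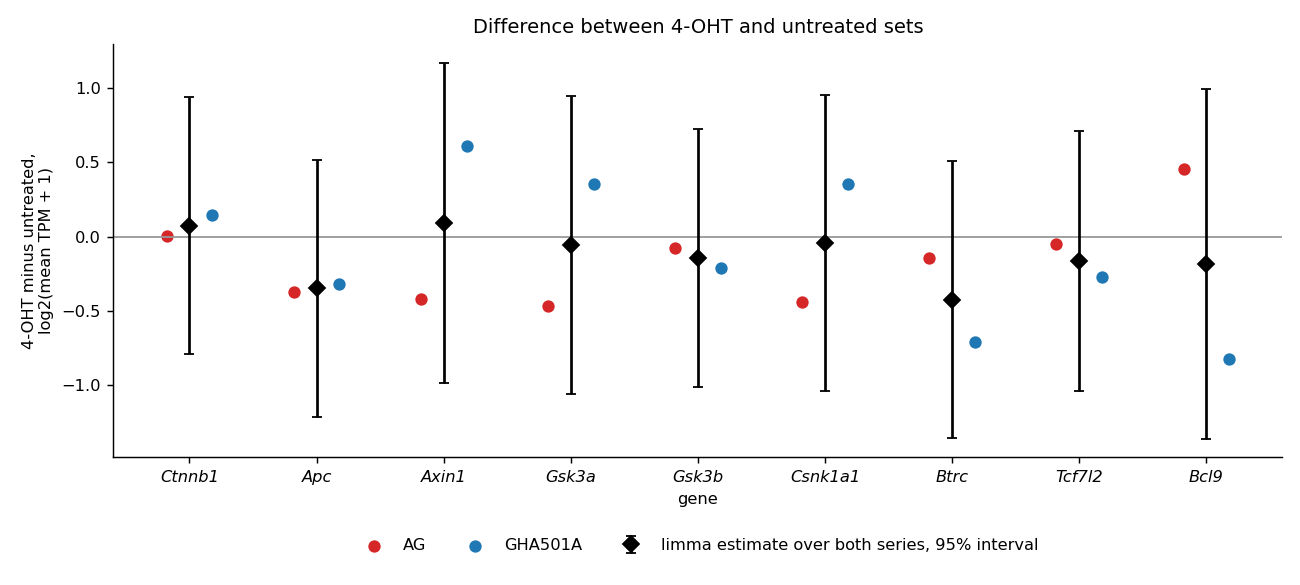
Difference between the 4-OHT and the untreated set, as log2(mean TPM + 1), for each gene (x axis) in AG (red) and GHA501A (blue), with the limma estimate over both series and its 95% interval (black). Every interval spans 0, from -1.01 to 0.73 for Gsk3b, and the coloured points lie on opposite sides of 0 for Axin1, Gsk3a, Csnk1a1 and Bcl9.

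Between the series, 4 members were called higher in GHA501A: Ctnnb1, Axin1, Btrc and Tcf7l2. On the log2(mean TPM + 1) scale the differences were 6.32 (SE 0.33, limma adjusted p = 0.00181) for Ctnnb1, 4.26 (SE 0.41) for Axin1, 3.61 (SE 0.35) for Btrc and 3.49 (SE 0.33) for Tcf7l2. These differences depend on the added 1 and are no measure of a fold. The background of genes called higher was 18.2%. Ctnnb1, Btrc and Tcf7l2 passed the filter on low values through GHA501A alone, so a difference was set by the filter, and they are not counted as support. Apc had a difference of -0.83 (SE 0.33, adjusted p = 0.131), and the interval reached from -1.69 to 0.04. With the mean of log2(TPM + 1) over cells in place of the log2 of the mean, the Apc difference was -1.42 and passed (limma adjusted p = 0.00647), whereas under the other alternatives adjusted p lay between 0.0978 and 0.261. Gsk3b and Csnk1a1 differed by -0.22 and -0.18, with intervals from -1.09 to 0.65 and from -1.17 to 0.82. Restricted to keratinocyte-like cells, the same 4 members were called higher, against a background of 8.91%. Ctnnb1, Btrc and Tcf7l2 again passed the filter through GHA501A cells alone, so neither their calls nor their sizes are counted as support. In this fit they passed TPM 1 in 0, 4 and 1 of 130 AG cells and in 20, 6 and 13 of 20 GHA501A cells. When AG untreated or AG 4-OHT cells were left out of that fit, together with the block, no gene of any kind was called and limma adjusted p for these 4 lay between 0.196 and 0.243. When any 1 set was left out, the difference was 3.28 to 3.70 for Axin1. For Ctnnb1, Btrc and Tcf7l2 it was 5.92 to 6.78, 3.15 to 3.30 and 2.39 to 3.01. Both AG sets were near 0 for these genes, so the difference had to stay large and its range is no support.

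Within GHA501A, keratinocyte-like and fibroblast-like cells of the same set could be compared, with the set as a block. None of the 9 members was called, against a background of 2.21% (245 of 11090 genes). The largest estimates were 1.25 for Gsk3a (95% interval -0.12 to 2.61), 1.05 for Bcl9 (-0.48 to 2.58), 0.90 for Tcf7l2 (-0.48 to 2.28) and 0.89 for Apc (-0.66 to 2.44), each on the side of fibroblast-like cells. On the other side were Csnk1a1 at -0.60 (-1.98 to 0.77) and Gsk3b at -0.38 (-1.75 to 0.98). On this scale of log2(mean TPM + 1), the sign was the same in both sets for 8 members. Ctnnb1 was the exception, with a difference of 0.37 in untreated and -0.47 in 4-OHT cells, where a keratinocyte-like cell held the highest Ctnnb1 value of the series, 695 TPM. The medians gave another order. Ctnnb1 was at 67.2 TPM in keratinocyte-like and 61 TPM in fibroblast-like untreated cells, and at 45.5 and 52.0 TPM after 4-OHT. Apc and Axin1 medians, unlike their means, were higher in keratinocyte-like cells of both sets. For Apc they were 1.68 against 1.34 TPM in untreated and 3.57 against 1.54 TPM in 4-OHT cells. For Axin1 they were 4.27 against 1.37 TPM and 0.884 against 0.751 TPM. Tcf7l2 and Csnk1a1 medians went the way of their means in both sets, and those of Gsk3a, Gsk3b and Btrc in 1 set. Clusters were built without members and list genes, but over the same cells.

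**Figure D5:**
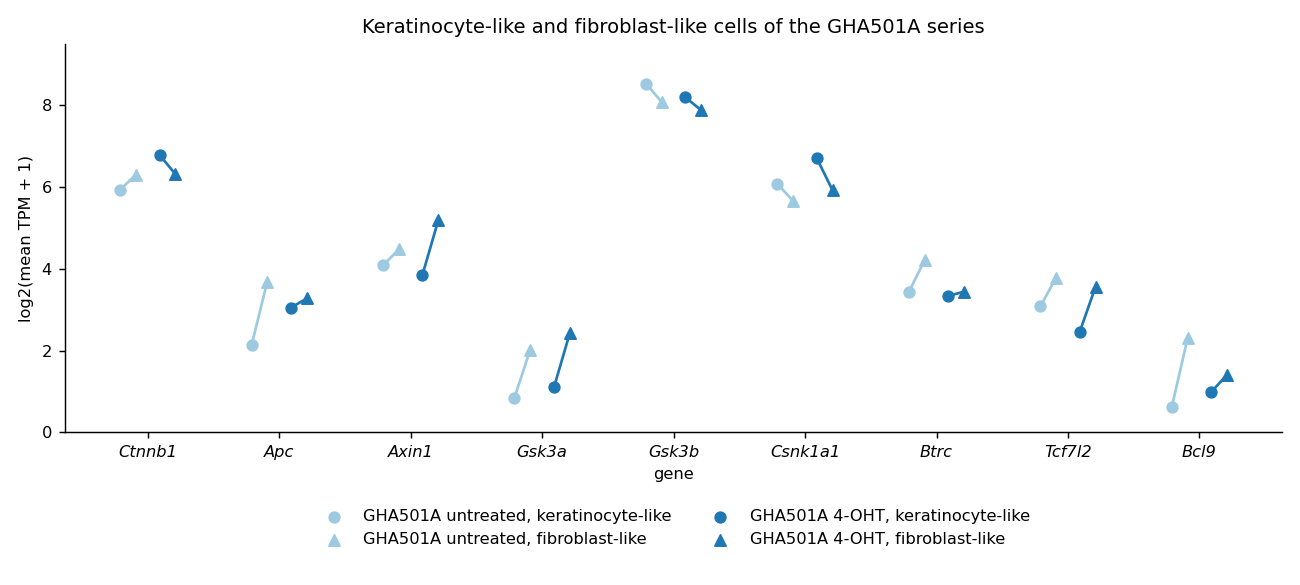
log2(mean TPM + 1) of each gene (x axis) in keratinocyte-like (circles) and fibroblast-like (triangles) cells of the GHA501A untreated (light) and 4-OHT (dark) sets, joined by a line. Triangles lie above circles in both sets for Apc, Axin1, Gsk3a, Btrc, Tcf7l2 and Bcl9, below them for Gsk3b and Csnk1a1, and on differing sides for Ctnnb1.

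Of the fibroblast-like cells, 22 (13 untreated, 9 4-OHT) formed a cluster led by Ddx17, Tra2a and Lemd2, apart from the other 98. The levels of some members in these clusters are given as a description, with no test. The Axin1 median was 5.98 TPM in the smaller and 0.374 TPM in the larger cluster of untreated cells, and 31.7 and 0.381 TPM after 4-OHT. The Apc medians were 2.38 and 1.32 TPM, and 10.6 and 1.20 TPM after 4-OHT. In both GHA501A sets the highest value of each gene lay in a cell of the smaller cluster. It was 463 and 597 TPM for Axin1 and 395 and 80.7 TPM for Apc (untreated and 4-OHT). The same cell held both maxima in untreated cells, and different cells held them after 4-OHT. Gsk3b went the other way, with medians of 197 and 282 TPM in untreated cells and 36.8 and 238 TPM after 4-OHT. Ctnnb1 medians were 92.4 and 56.6 TPM in untreated cells and 58.4 and 51.6 TPM after 4-OHT, with overlapping ranges. In AG, a cluster of 25 cells with fewer genes detected (medians of 4893 in 18 untreated and 4307 in 7 4-OHT cells, against 6385 and 6513 in the others) had a lower Gsk3b median, 110.99 against 337 TPM in untreated and 188.1 against 284 TPM in 4-OHT cells. The part of gene number in this was not tested.

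Of the wider pathway, 31 of 32 listed partners in degradation were measured, and 0 were called with 4-OHT, beside 0% of all genes. The median difference of the partners was 0.05, beside 0.00 over all genes. Axin2, the negative-feedback scaffold and best known target of beta-catenin, was detected in 12.1% and 15.6% of AG untreated and 4-OHT cells, and in 5.63% and 4.35% of GHA501A cells. Its limma estimate for 4-OHT was 0.23 (SE 0.35, adjusted p = 0.998). The Apc paralogue Apc2 was detected in no more than 8.70% of cells of any set, and Csnk1e, another casein kinase 1, in 92.4%, 84.4%, 69% and 63.8% of cells in the order of AG untreated, AG 4-OHT, GHA501A untreated and GHA501A 4-OHT. Between the series, 5 of the 31 were called higher in GHA501A, a share close to the 18.2% of all genes called higher. Siah1a alone was called lower (-1.44), beside 10.8% of all genes. Csnk1d, Csnk1g2 and Ube2m passed the filter on low values through GHA501A alone, so their difference was set by the filter. They exceeded TPM 1 in 5, 2 and 2 of 130 AG cells and in 79.3%, 57.1% and 50.7% of GHA501A cells. The remaining calls were Ppp2r5c, a phosphatase subunit, by 7.01 (over TPM 1 in 9 AG cells) and Dvl2, which relays the Wnt signal to the complex, by 3.32 (34 AG cells). The median over the list was -0.19 beside 0.01 over all genes.

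Among 21 measured nuclear partners of 26 listed, 0 were called with 4-OHT (median -0.10), beside 0% of all genes. The Tcf7l2 relatives were sparse. Tcf7 was detected in 24.2% and 23.4% of AG and 26.8% and 23.2% of GHA501A cells, and its 4-OHT estimate was -0.37 (adjusted p = 0.998). Lef1, which is typical of hair follicle precursors, was detected in 0 and 1 AG cells and in 19.7% and 27.5% of GHA501A cells. Between the series, 5 of the 21 were called higher in GHA501A, beside 18.2% of all genes, and 1 lower (Tbl1xr1, -1.32), beside 10.8% of all genes. Lef1 and Hipk2, each over TPM 1 in 1 of 130 AG cells, passed the filter through GHA501A alone and are not read as calls. The others were Ctnnbip1, an inhibitor of the binding of beta-catenin to Tcf factors, by 3.81, Ctbp2 by 2.87 and Crebbp by 1.43. The median of the list was 0.19.

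Junction partners are genes of the cell junctions, where beta-catenin is held outside the complex, and some of them are also markers of epithelial cells. None of 10 measured of 12 listed was called with 4-OHT, beside 0% of all genes. Between the series, Cdh1 (-3.81), Jup, the plakoglobin gene (-3.10), and Nectin1 (-2.49) were called lower in GHA501A, beside 10.8% of all genes and beside the lower keratinocyte markers of that series. In the comparison within GHA501A, Cdh1 (-5.66, limma adjusted p = 0.0332) and Jup (-4.39, adjusted p = 0.0342) were lower in fibroblast-like cells, beside 1.21% of all genes called lower, and Cdh1 is also on the marker list that named these cells. Ctnna1, which ties beta-catenin to actin, was detected in every cell of the 4 sets, with medians of 854 and 915 TPM in AG and 352 and 401 TPM in GHA501A. Ctnnb1 was near 0 in AG cells, in which Cdh1, Jup and Ctnna1 transcripts were widely detected. Other genes of the list were sparse there: Ctnnd1 passed TPM 1 in 0, Cdh2 in 2 and Cdh3 in 11 of 130 AG cells.

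Esr1, the oestrogen receptor gene, was examined because the transgene product carries an oestrogen receptor domain. It was detected in 1 and 2 AG cells and in 9 and 9 GHA501A cells (untreated and 4-OHT), with a highest value of 124 TPM. Its limma estimate for 4-OHT was 0.67 (SE 0.43, adjusted p = 0.998). Over keratinocyte-like cells only, the estimate was 2.10 and was not called. In GHA501A, Esr1 passed TPM 1 in 3 of 20 keratinocyte-like and 15 of 120 fibroblast-like cells, and the highest value lay in a keratinocyte-like cell. With 3 of 130 AG and 18 of 140 GHA501A cells over TPM 1, it passed the filter through GHA501A alone, and the series difference is not read as a call. Whether these reads come from the transgene was not tested.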

How the data were processed

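Single cells were captured on a C1 chip, amplified with SMART-Seq v4 and sequenced as paired-end reads. The authors trimmed reads with Cutadapt, mapped them with TopHat (GRCm38), kept uniquely mapped reads and counted genes with featureCounts (versions not given in the sources used here). The deposited values are TPM and hold no depth. Of 294 cells, 16 columns matched no labelled sample and were not used, and 8 AG cells (5 labelled treated, 3 untreated) whose library name and treatment label conflict were left out, leaving 270.

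Detection means TPM over 1. Cells of each series were clustered by Ward's method (3 clusters in GHA501A, 2 in AG) on 10 principal components of the 2000 most variable genes, without the members, listed partners and cell-cycle genes. A cluster was named by whether its keratinocyte or fibroblast markers were higher. Melanocyte and endothelial markers were low in every cluster, with summed medians of at most 20.5 and 0 TPM. The only measured immune marker, Lyz2, had medians of 0 to 110.2 TPM and reached 54196 TPM in the larger fibroblast-like cluster.

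limma 3.58.1 (R 4.3.3, two-sided) was run on set means, with a pseudocount of 1, and calls over all genes tested. The steps were tested on simulated data. Other computations used Python 3.11.15, pandas 2.3.3, scipy 1.17.1 and scikit-learn 1.9.0. Gene positions and the Ctnnb1 sequence are from GENCODE M21. Members and lists were chosen with earlier results of these data known. The genes named are the members, their paralogues, list genes past the thresholds (up to 6 in each direction) and the 3 genes most correlated with Ctnnb1, Gsk3b and Tcf7l2 within sets. Alternatives were the mean of log2 values, a pseudocount of 0.1, other filters, rescaled TPM, cells with at least 4000 genes, no block, sets left out, the 8 cells included, and classes by 100 TPM of Krt14 and Col1a1.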

Additional observations from a re-analysis of the deposited data

Results flagged for a closer look

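For 4 members the difference between 4-OHT and untreated cells had opposite signs in the 2 series, with 1 set per treatment in each, so that the difference between the series was not tested. On the log2(mean TPM + 1) scale, Axin1 differed by -0.42 in AG and 0.61 in GHA501A, a gap of 1.03. In GHA501A its median and detection were lower after 4-OHT, at 0.806 against 1.53 TPM and 44.9% against 53.5% of cells. Gsk3a differed by -0.47 and 0.35, a gap of 0.82. Csnk1a1 differed by -0.44 and 0.36, a gap of 0.80, although its medians were slightly lower after 4-OHT in both series. Bcl9 differed by 0.45 and -0.82, a gap of -1.28. In AG, Axin1 rests on 10 untreated and 4 4-OHT cells with TPM over 1.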

How the results depend on the processing

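The count of genes called with 4-OHT was 0 under every alternative run, in all cells and in keratinocyte-like cells. With the mean of log2(TPM + 1) over cells, 5539 genes (44.8%; 2650 higher, 2889 lower) were called between the series, beside 3580 (2247 higher, 1333 lower), and 954 (8.60%) between fibroblast-like and keratinocyte-like cells, beside 245. In the latter, 0.974% (58 higher, 50 lower) were called with no replicate block, 0% with no filter and 0% with a pseudocount of 0.1. Without the filter, 614 genes (4.35%) were called between the series in keratinocyte-like cells. Leaving out 1 set at a time, with no replicate block, gave 1468 to 2279 genes (12.2 to 18.7%) between the series and 0 to 2970 (0 to 25.6%) in keratinocyte-like cells, the 0 without either AG set. For the class comparison it leaves no residual degrees of freedom and was not run. With no replicate block and all sets, 3853 genes were called between the series, and 1936 in keratinocyte-like cells. The labels number cells, not sets, so the series served as the pairing.

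With the mean of log2(TPM + 1), the 4-OHT difference changed sign for Apc (0.043), Axin1 (-0.083) and Ctnnb1 (-0.11), the class difference for Axin1 (-0.058) and Ctnnb1 (0.025), and the series difference for Gsk3a (-0.17). A pseudocount of 0.1 turned Axin1 with 4-OHT to -0.30. None of these values was called. Leaving out a set without the block lets the series difference enter the 4-OHT difference, which then ranged from -0.78 to 0.080 for Apc, -2.29 to 2.48 for Axin1, -0.71 to 0.34 for Bcl9, -2.37 to 1.52 for Btrc, -0.33 to 0.25 for Csnk1a1, -3.12 to 3.27 for Ctnnb1, -0.33 to 0.22 for Gsk3a and -1.96 to 1.64 for Tcf7l2. The series difference then ranged from -0.39 to 0.044 for Csnk1a1 and from -0.10 to 0.37 for Gsk3a. Btrc between the series was not called without either AG set (adjusted p = 0.061 and 0.0603). In keratinocyte-like cells with no filter, adjusted p was 0.0529 for Axin1, 0.0558 for Btrc and 0.0747 for Tcf7l2, and with the mean of log2 values 0.183 for Btrc and 0.0535 for Tcf7l2. The cause was not tested.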
